A study of Mus musculus with 12 samples.

Results

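The small leucine-rich proteoglycans are secreted core proteins built from leucine-rich repeats, and 10 of their genes, *Dcn*, *Bgn*, *Aspn*, *Lum*, *Fmod*, *Prelp*, *Omd*, *Kera*, *Ogn* and *Podn*, were followed through the reprogramming of cardiac fibroblasts by *Sox17* and *Erg*. They were taken by name as members of the family, with earlier results of these data known, out of 35727 genes in the bulk RNAseq counts. All 10 had an entry, 9 passed the filter on low counts among 15506 tested genes, and *Kera* had 0 counts in all 12 libraries.

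Cells came from hearts of newborn C57BL/6J mice, collected between Day 0 and Day 3 after birth and digested together, so that a culture is a pool of animals. The starting cells were selected for THY1, a fibroblast surface protein. After its factor screen the study added a step that removes PECAM1-positive endothelial cells, in the part that also reports these libraries. It does not name the step for the bulk libraries themselves. Both arms were grown in EGM2, an endothelial growth medium. *Sox17*-*Erg* samples received retroviruses carrying the endothelial transcription factor genes *Sox17* and *Erg* in a pMX backbone, under a viral promoter and not an endothelial one, and are labelled iEC (induced endothelial cells). Control samples are labelled fibroblast and carry PMX in their library names, and no allele or drug differs between the arms in the labels. RNA came from cultures of Day 3, of Day 7 or of 4 weeks, and each of the 6 groups had 2 libraries. The sources give no sorting of cells before extraction for these libraries, so the values are read here as those of whole cultures, and fewer cells of one type and less RNA per cell cannot be told apart in them.

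Depth was between 19011635 and 41240449 counts per library. *Sox17* had between 0 and 9 counts in every control library and between 10019 and 36238 in every *Sox17*-*Erg* library, as the labels state. *Erg* had between 2 and 49 counts in controls and between 389 and 1842 in *Sox17*-*Erg* libraries. The fibroblast label was checked against 7 markers. Their summed level was 9827 to 35650 counts per 1000000 counts (CPM, scaled by TMM) in control libraries and 10200 to 39240 in *Sox17*-*Erg* libraries. This sum does not separate the arms and hides opposite differences of single markers. At 4 weeks *Pdgfra* and *Tcf21* were lower and *Postn* higher in *Sox17*-*Erg* libraries, as given below. The 8 endothelial markers summed to 17.9 to 54.2 CPM in control and to 300.2 to 759.7 CPM in *Sox17*-*Erg* libraries, and *Cldn5*, a tight junction gene of endothelium, had no more than 10 counts in any library. The labels do not say that replicates are separate isolations, so p-values measure the spread between these libraries, which may be technical.

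In connective tissue these proteins sit on collagen fibrils and set how fibrils assemble and space. Class I holds decorin (*Dcn*), biglycan (*Bgn*) and asporin (*Aspn*). The first 2 carry chondroitin or dermatan sulfate chains and also bind TGF-beta and cell surface receptors. Class II holds lumican (*Lum*), fibromodulin (*Fmod*), PRELP (*Prelp*), osteomodulin (*Omd*) and keratocan (*Kera*), several of which carry keratan sulfate. Osteoglycin (*Ogn*) belongs to class III, and podocan (*Podn*) to a later-described class. Decorin and lumican are products of stromal fibroblasts, and decorin is widely used as a fibroblast marker in the heart.

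Most of the family sits in short runs of neighbouring genes. On chromosome 10 (GRCm38, GENCODE M21 annotation) *Dcn* (chr10:97479609-97518143), *Lum* (chr10:97565128-97572703) and *Kera* (chr10:97606879-97613692) lie on the plus strand within 202.8 kb that end with *Epyc*, the gene of epiphycan. On chromosome 1, *Prelp* (chr1:133910304-133921414, minus strand) and *Fmod* (chr1:134037254-134048277, plus strand) lie 115839 bases apart in a run of 151.1 kb that begins with *Optc*, the gene of opticin. On chromosome 13, *Aspn* (chr13:49544443-49567565), *Omd* (chr13:49582462-49592822) and *Ogn* (chr13:49608046-49624501) follow *Ecm2* within 119.7 kb, on the plus strand and inside the span of *Cenpp*, a centromere protein gene on the other strand. *Bgn* (chrX:73483602-73495933) and *Podn* (chr4:108014791-108096445) have no other family member beside them. These are protein-coding genes, and the counts cover their exons, UTRs included.

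The promoters of 4 genes are shown, chosen for their values below. *Bgn* had the highest level and a small difference between the arms, and *Ogn* one of the largest differences. The neighbours *Fmod* and *Prelp* were at -1.79 and -0.48 (log2) against control at 4 weeks, and the 2 genes were not tested against each other. Each is 250 bases that end just before the RefSeq transcription start (GRCm38.p6), 5′ to 3′ on the gene's strand. Capitals mark matches to 3 motifs. The first is AGGAAG, which holds the ETS core that ERG and its relatives bind. Another is ATTGT, a core bound by SOX factors such as SOX17. The last is the TATA box, spelled TATAAA. All were searched on both strands, so that a match on the other strand appears as its reverse complement.
*Bgn*, chrX:73483351-73483600, plus strand: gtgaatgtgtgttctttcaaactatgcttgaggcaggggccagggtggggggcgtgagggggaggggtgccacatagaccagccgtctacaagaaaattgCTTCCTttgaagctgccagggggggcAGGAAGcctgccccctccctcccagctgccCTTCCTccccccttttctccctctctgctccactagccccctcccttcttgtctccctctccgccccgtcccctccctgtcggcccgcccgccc
*Ogn*, chr13:49607765-49608014, plus strand: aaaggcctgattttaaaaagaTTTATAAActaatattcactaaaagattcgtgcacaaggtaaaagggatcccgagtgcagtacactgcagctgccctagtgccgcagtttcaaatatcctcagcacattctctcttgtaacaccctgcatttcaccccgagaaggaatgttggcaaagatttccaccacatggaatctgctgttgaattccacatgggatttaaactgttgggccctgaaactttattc
*Fmod*, chr1:134037004-134037253, plus strand: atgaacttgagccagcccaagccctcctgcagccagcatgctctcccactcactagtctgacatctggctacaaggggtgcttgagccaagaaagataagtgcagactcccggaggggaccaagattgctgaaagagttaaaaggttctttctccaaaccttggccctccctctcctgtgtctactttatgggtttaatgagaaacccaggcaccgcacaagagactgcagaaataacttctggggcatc
*Prelp*, chr1:133921402-133921651, minus strand: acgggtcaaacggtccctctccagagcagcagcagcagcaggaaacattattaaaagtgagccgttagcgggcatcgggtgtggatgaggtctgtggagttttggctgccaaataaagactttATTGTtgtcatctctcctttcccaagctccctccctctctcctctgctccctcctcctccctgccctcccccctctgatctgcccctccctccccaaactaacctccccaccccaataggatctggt

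The *Bgn* promoter held 3 AGGAAG matches, 150, 124 and 94 bases before the start. The *Ogn* promoter held 2 TATAAA matches that overlap on opposite strands, 229 and 227 bases before the start, the *Prelp* promoter held 1 ATTGT match 127 bases before the start, and the *Fmod* promoter held none of the 3 motifs. Among 32851 mouse promoters of the same length, 29.5% held AGGAAG, 27.7% held ATTGT and 12.4% held TATAAA. GC content was 64.4% for *Bgn*, 55.6% for *Prelp*, 51.2% for *Fmod* and 42.0% for *Ogn*. Promoters were given for 8 of the 10 genes, and those of *Dcn* and *Lum* were not used here. A match is a string of letters and not a bound site.

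The first question was whether the family was lower once fibroblasts carried *Sox17* and *Erg*, and when. All 9 tested genes had a lower mean in *Sox17*-*Erg* than in control at each of the 3 time points, but not all differences exceeded the spread between libraries. By edgeR's quasi-likelihood test with Benjamini-Hochberg adjustment over all tested genes, *Fmod* and *Prelp* were called lower at Day 3 (2 genes), *Dcn*, *Ogn*, *Lum*, *Fmod* and *Prelp* at Day 7 (5 genes) and *Dcn*, *Ogn*, *Lum* and *Fmod* at 4 weeks (4 genes), where called means an adjusted p under 0.05. The share of all tested genes called lower was 5.13% for Day 3, 7.93% for Day 7 and 11.0% for 4 weeks. No member was called higher at any time point by edgeR, by DESeq2 or at an unadjusted p under 0.05, against 7.19%, 9.48% and 11.9% of all genes called higher by edgeR. The median log2 fold change of the 9 was -1.29, -1.50 and -1.20 at the 3 time points, beside 0.01, 0.01 and -0.01 for all tested genes.

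**Figure D1:**
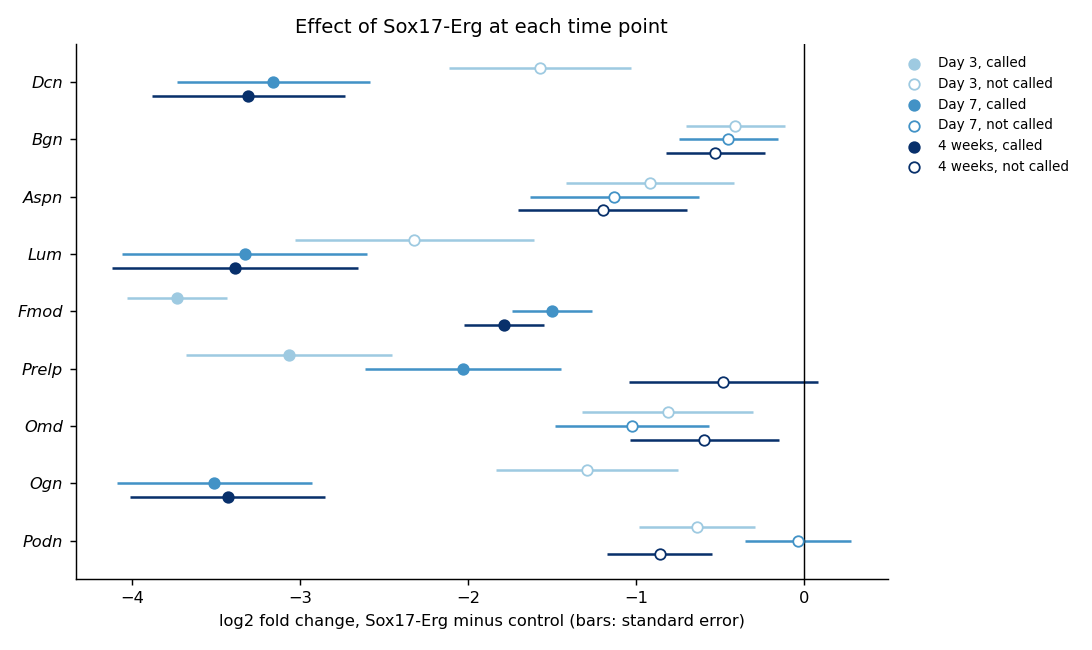
Log2 fold change of *Sox17*-*Erg* against control for the 9 tested genes at Day 3, Day 7 and 4 weeks, with bars for the standard error (2 libraries per group) and filled points for genes called at an adjusted p under 0.05. All points lie below 0, *Dcn*, *Lum* and *Ogn* lie near -3.3 from Day 7 on, and *Prelp* moves from -3.07 to -0.48.

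The replicate number bears on these counts. Deviations of same-numbered control and *Sox17*-*Erg* libraries correlated weakly across genes, by 0.19, 0.30 and 0.17 in time order, which does not show that they are pairs. At 4 weeks *Dcn*, *Lum*, *Ogn* and *Podn* were higher in replicate 1 in control but in replicate 2 in *Sox17*-*Erg*, and *Omd* also ran opposite ways. *Bgn*, *Prelp*, *Fmod* and *Aspn* were higher in replicate 1 in both arms. With the number as a replicate block 4 genes were called lower at Day 3, *Dcn* and *Lum* joining *Fmod* and *Prelp*, beside 6.64% of all genes in that fit. Later the same 5 and 4 members as above were called, beside 9.42% and 12.2%. With a block inside each time point, an alternative chosen after seeing the data, 6 were called lower at Day 3, *Ogn* and *Aspn* also joining, beside 10.4% of all genes. That block gave 6 members lower at Day 7, beside 13.3%, and 5 at 4 weeks, beside 15.5%, *Aspn* joining both times. With no filter on low counts 6 members were called lower at Day 3, beside 5.19% of all genes. In time order, DESeq2 called 4, 5 and 5 members lower, beside 8.70%, 10.2% and 11.9% of all genes. At an adjusted p under 0.01 edgeR called 1 member lower at Day 3, beside 0.755% of all genes, and 3 at Day 7, beside 2.64%. With Day 7 fitted alone 3 were called lower, beside 3.29%.

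*Dcn*, *Lum* and *Ogn* formed the group with the largest lasting difference. *Dcn* was at 281 and 382 CPM in the control libraries at Day 3, rising to 1187 and 2259 CPM by Day 7 and to 2855 and 2350 CPM by 4 weeks. In *Sox17*-*Erg* libraries it was at 65.7 and 157 CPM, at 103 and 283 CPM, and at 224 and 301 CPM. The arms did not overlap at any time point, and the highest *Sox17*-*Erg* library of all, at 4 weeks, only reached the range that controls had at Day 3. The log2 fold change of *Dcn* was -1.57 (SE 0.54, adjusted p = 0.089) first, -3.16 (SE 0.57, adjusted p = 0.0064) on Day 7 and -3.31 (SE 0.58, adjusted p = 0.0036) by 4 weeks, the last a 9.91-fold lower level. With the replicate block the Day 3 difference was -1.67 (adjusted p = 0.025). Without *Sox17*-*Erg* replicate 2 of the same day, it was -2.34 at Day 3 and -4.10 at Day 7. The smallest differences over the leave-outs were -1.12 and -2.60.

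*Lum*, the next gene on chromosome 10, was lower still at Day 3. Its levels were 58.8 and 98.6 CPM in control and 5.47 and 25.9 CPM in *Sox17*-*Erg* libraries at Day 3. They were 330 and 548 CPM against 20.6 and 67.0 CPM at Day 7, and 858 and 669 CPM against 64.8 and 81.1 CPM at 4 weeks. The *Sox17*-*Erg* library labelled replicate 1 was below replicate 2 each time, and no *Sox17*-*Erg* library reached a control of its own time point. The log2 fold changes were -2.32 (SE 0.71, adjusted p = 0.064), -3.33 (SE 0.73, adjusted p = 0.015) and -3.39 (SE 0.73, adjusted p = 0.0099), and with the replicate block the Day 3 value was -2.49 (adjusted p = 0.021). Without *Sox17*-*Erg* replicate 1 of the same day the Day 3 and Day 7 values were -1.64 and -2.71, and without replicate 2 they were -3.85 and -4.45, with the Day 3 value then called (adjusted p = 0.027). The Day 7 call was lost without control replicate 2 (adjusted p = 0.064) or *Sox17*-*Erg* replicate 1 (adjusted p = 0.10) of that day. The 4-week call was lost without *Sox17*-*Erg* replicate 1 (adjusted p = 0.085) or replicate 2 (adjusted p = 0.054) of 4 weeks.

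*Ogn*, from the chromosome 13 run, had the smallest difference of the 3 at Day 3 and the largest later. Controls held 74.6 and 101 CPM on Day 3, then 441 and 820 CPM on Day 7, then 993 and 809 CPM. *Sox17*-*Erg* libraries held 24.9 and 46.6 CPM, 24.5 and 86.5 CPM, and 77.4 and 89.8 CPM. Every *Sox17*-*Erg* library was below every control of its own time point, and the 4-week *Sox17*-*Erg* libraries were near the Day 3 controls. The log2 fold change was -1.29 (SE 0.54, adjusted p = 0.15), then -3.51 (SE 0.58, adjusted p = 0.0042), then -3.43 (SE 0.58, adjusted p = 0.0031), where the level was 10.8-fold lower. At Day 3 the replicate block gave -1.35 (adjusted p = 0.064, not called) and a block inside each time point -1.34 (adjusted p = 0.011), and a fit of Day 7 alone gave -3.52 (adjusted p = 0.050, just over the threshold). The Day 7 and 4-week calls of *Dcn* and *Ogn*, and the calls of *Fmod* at all 3 time points, held without any 1 of the 12 libraries. The size of the *Ogn* difference at Day 7 was less stable, at -2.86 without *Sox17*-*Erg* replicate 1 of that day and -4.72 without replicate 2.

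*Fmod*, a modulator of fibril thickness, was near 1 CPM in *Sox17*-*Erg* cultures at Day 3 and rose from there. In time order, control libraries had 18.0 and 12.2 CPM, 49.8 and 35.8 CPM, and 66.6 and 58.5 CPM. *Sox17*-*Erg* libraries had 0.860 and 1.38 CPM, from 17 and 32 counts, then 15.03 and 15.2 CPM, then 20.1 and 16.1 CPM. The later *Sox17*-*Erg* values lie about where controls were at Day 3, and below the controls of their own time. On the log2 scale the differences were -3.73 (SE 0.30, adjusted p = 0.00042), -1.50 (SE 0.24, adjusted p = 0.0034) and -1.79 (SE 0.24, adjusted p = 0.00095), that is 13.3-fold, 2.83-fold and 3.45-fold lower.

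*Prelp*, whose product links basement membranes to collagen, went from far below control at Day 3 to close below it at 4 weeks. Its control libraries had 270.4 and 390 CPM, then 1149 and 1520 CPM, then 2208 and 1793 CPM. The *Sox17*-*Erg* libraries had 19.5 and 59.2 CPM, 161 and 494 CPM, and 1654 and 1212 CPM. Each *Sox17*-*Erg* pair stayed below its controls, but at 4 weeks the gap between the nearest libraries was small. The log2 fold change was -3.07 (SE 0.61, adjusted p = 0.016), then -2.03 (SE 0.58, adjusted p = 0.042), and by 4 weeks -0.48 (SE 0.56, adjusted p = 0.59, 95% interval -1.75 to 0.79).

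The Day 7 call of *Prelp* was fragile. It was kept without only 3 of the 12 libraries, with adjusted p between 0.015 and 0.22 over the leave-outs, and was lost without each of the 6 control libraries and without *Sox17*-*Erg* replicate 1 of Day 7 and both *Sox17*-*Erg* libraries of 4 weeks. Its Day 3 call was lost without either Day 3 control or *Sox17*-*Erg* replicate 1 of Day 3, with adjusted p up to 0.11. With the replicate block the Day 7 value was -2.14 (adjusted p = 0.023). It was -1.43 without *Sox17*-*Erg* replicate 1 of Day 7 and -3.09 without replicate 2, and the Day 3 value was -4.08 without *Sox17*-*Erg* replicate 2 of Day 3. An exon of *Prelp* overlaps *Gm15851*, a transcript on the other strand, and since the strand setting of the quantification is not given, reads of the 2 cannot be separated with certainty.

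*Bgn*, the close relative of *Dcn*, was the most abundant member and had small differences at all 3 time points. In time order, controls held 5442 and 6346 CPM, 8947 and 11399 CPM, and 12158 and 9558 CPM. *Sox17*-*Erg* libraries held 3306 and 5582 CPM, 6512 and 8396 CPM, and 8156 and 6902 CPM. The arms overlapped at Day 3 and lay apart, but close, at Day 7 and 4 weeks. The log2 fold changes were -0.41 (95% interval -1.07 to 0.26), -0.45 (-1.11 to 0.22) and -0.53 (-1.19 to 0.14), with adjusted p of 0.39, 0.33 and 0.23. No difference was shown, and each interval also holds lower levels.

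*Aspn*, another class I gene, was the one member whose mean was lower later than at Day 3 in both arms, a decline that did not pass the test. Controls were at 86.5 and 138 CPM, 73.7 and 105 CPM, and 74.4 and 49.0 CPM at the 3 time points. *Sox17*-*Erg* libraries were at 32.4 and 86.5 CPM, 24.8 and 57.1 CPM, and 27.6 and 26.2 CPM. At Day 3 the highest *Sox17*-*Erg* library touched the lowest control, and later the arms were apart. The differences of -0.92, -1.13 and -1.20 (adjusted p = 0.25, 0.16 and 0.12) did not pass the edgeR test, nor did they with the replicate block (adjusted p = 0.16, 0.090 and 0.068). Without *Sox17*-*Erg* replicate 2 of the same day the Day 3 and Day 7 values were -1.80 and -1.89, and without replicate 1 they were -0.42 and -0.64. The block inside each time point gave -1.04, -1.22 and -1.17 (adjusted p = 0.022, 0.010 and 0.010). DESeq2 called the 4-week difference (adjusted p = 0.044). An *Aspn* exon overlaps *Cenpp* on the other strand, which itself had log2 fold changes of 0.44, 0.03 and 0.15 (adjusted p = 0.66, 0.98 and 0.90).

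*Omd*, first known from bone, and *Podn*, which binds collagen, were at low levels throughout. *Omd* ran from 1.20 to 6.14 CPM in control and from 0.708 to 3.11 CPM in *Sox17*-*Erg* libraries, with differences of -0.81, -1.03 and -0.59 (adjusted p = 0.32, 0.16 and 0.38). The *Omd* value at Day 7 was -1.85 without *Sox17*-*Erg* replicate 2 of that day, and -0.49 at its smallest over the leave-outs. *Podn* ran from 2.03 to 13.5 CPM in control and from 1.62 to 8.56 CPM in *Sox17*-*Erg* libraries, with differences of -0.63, -0.04 and -0.86 (adjusted p = 0.25, 0.96 and 0.080). The Day 7 arms of *Podn* overlapped, and that value turned to 0.25 without control replicate 2 of Day 7. Of the 31-base words in *Omd* transcripts 5.43% also occur in other genes, against at most 0.35% for the other members, so *Omd* counts are the least certain. *Kera*, a cornea gene, was at 0, which allows up to 3 counts or 0.0752 to 0.152 CPM per library, counting error only.

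**Figure D2:**
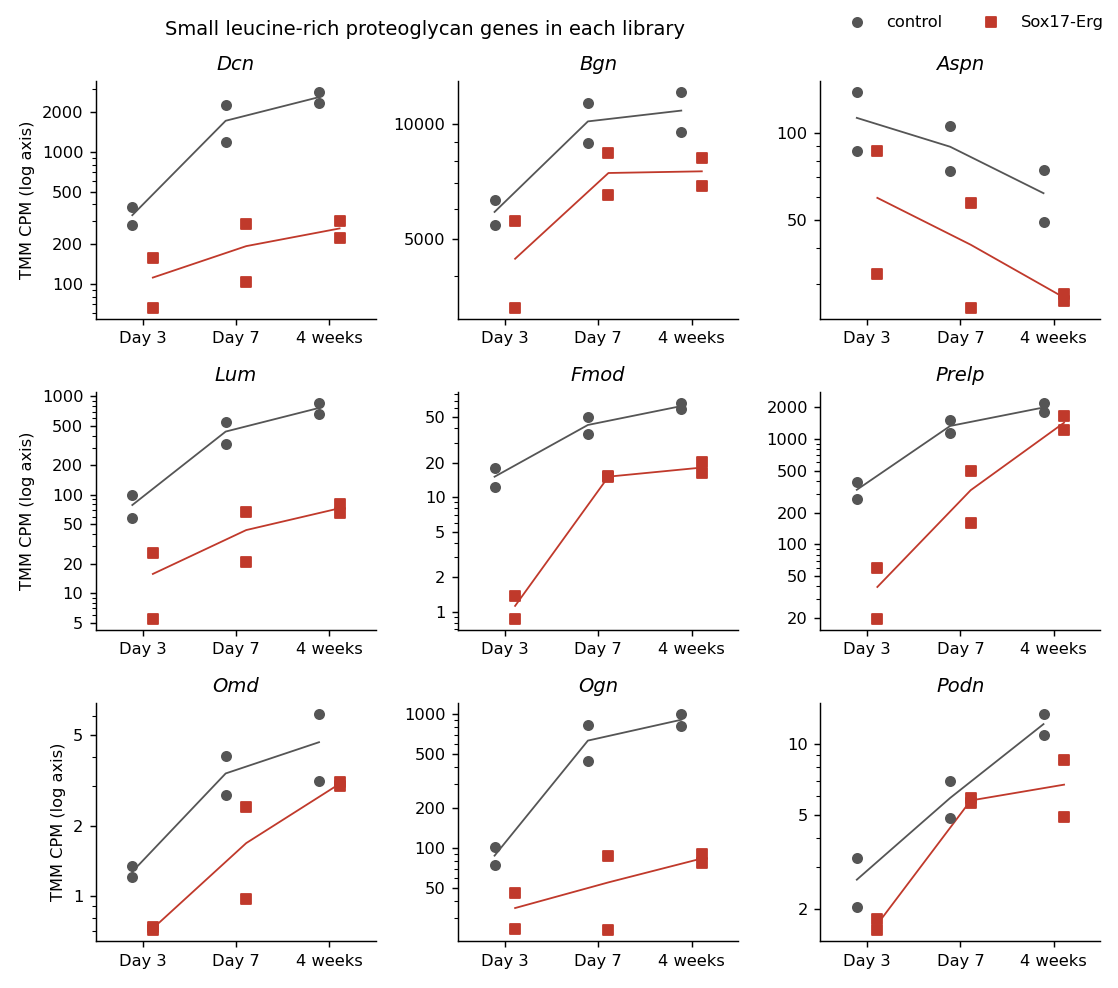
TMM-scaled CPM (log axis, a separate scale per panel) of the 9 genes with counts in each of the 12 libraries, with circles for control, squares for *Sox17*-*Erg* and lines through the means of 2 libraries. Control *Dcn*, *Lum* and *Ogn* rise to 2350 CPM, 669 CPM and 809 CPM or more at 4 weeks, while their *Sox17*-*Erg* libraries stay at or below 301 CPM, 81.1 CPM and 89.8 CPM.

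The second question was how the family moved with time in each arm. In control cultures 8 of the 9 genes had a higher mean after 4 weeks than on Day 3, and 7 were called higher (*Dcn*, *Ogn*, *Podn*, *Lum*, *Fmod*, *Prelp* and *Omd*), beside 13.9% of all tested genes, and none was called lower by edgeR, by DESeq2 or at an unadjusted p under 0.05, beside 12.6%. *Ogn* rose 10.3-fold (log2 3.36, SE 0.58, adjusted p = 0.0040), *Lum* 9.71-fold (3.28, SE 0.73, adjusted p = 0.012) and *Dcn* 7.86-fold (2.97, SE 0.57, adjusted p = 0.0062). By Day 7 *Dcn*, *Ogn* and *Fmod* were called higher, 3 genes, beside 4.70% of all genes. The replicate block also called *Lum* (2.48, adjusted p = 0.027) and *Prelp* (2.03, adjusted p = 0.045), 5 genes in all, beside 5.58%, and DESeq2 called 7, beside 8.42%. Between Day 7 and 4 weeks no member was called higher by edgeR or by DESeq2, 2 had an unadjusted p under 0.05, and 0.174% of all genes were called higher. *Bgn* was 0.88 higher at 4 weeks than at Day 3 (adjusted p = 0.055, called by DESeq2 at 0.0042) and *Aspn* was at -0.86 (adjusted p = 0.23). At an adjusted p under 0.01, 4 members were called higher at 4 weeks than at Day 3, beside 6.11% of all genes.

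In *Sox17*-*Erg* cultures 5 genes were called higher at 4 weeks than at Day 3 (*Prelp*, *Fmod*, *Lum*, *Omd* and *Podn*), beside 15.1% of all tested genes. *Prelp* rose 36.4-fold (log2 5.18, SE 0.67, adjusted p = 0.0012) and *Fmod* 16.0-fold (log2 4.00, SE 0.30, adjusted p = 0.00017), the 2 largest rises of the family in that arm. *Dcn* and *Ogn* were 1.24 and 1.22 higher on the log2 scale (adjusted p = 0.11 and 0.12) and were called with the replicate block (adjusted p = 0.029 and 0.044), which called 7 genes, beside 16.0% of all genes. With no filter on low counts 8 were called higher, beside 9.96%, and at an adjusted p under 0.01 there were 3, beside 7.25%. None was called lower by edgeR or DESeq2, beside 15.6% of all genes, and 1, *Aspn* at -1.15, had an unadjusted p under 0.05. With no filter *Aspn* was called lower with time in both arms, beside 8.52% of all genes in control and 9.19% in the other arm. From Day 3 to Day 7 *Podn*, *Fmod* and *Prelp* were called higher, beside 2.04% of all genes. From Day 7 to 4 weeks edgeR called none higher, beside 1.15%, 1 had an unadjusted p under 0.05 and DESeq2 called 1, *Prelp* (log2 2.13, adjusted p = 0.10 by edgeR and 0.018 by DESeq2).

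Tests of the difference itself asked whether the effect of *Sox17*-*Erg* changed with time. Between Day 3 and 4 weeks it changed for *Fmod* alone by edgeR, by 1.95 towards control (SE 0.38, adjusted p = 0.027), beside 3.21% of all tested genes, and 4 members had an unadjusted p under 0.05. The change for *Prelp* was larger but less certain (2.59, SE 0.81, adjusted p = 0.14), and those of *Ogn* (-2.14, adjusted p = 0.19) and *Dcn* (-1.74, adjusted p = 0.29) ran away from control. The replicate block called *Fmod* alone and not *Prelp*, *Ogn* or *Dcn* (adjusted p = 0.087, 0.090 and 0.12). The block inside each time point called all 4, *Prelp* at 2.75 (adjusted p = 0.022), *Ogn* at -2.08 (adjusted p = 0.019), *Dcn* at -1.63 (adjusted p = 0.046) and *Fmod* at 1.91 (adjusted p = 0.027), beside 6.89% of all genes, and so did the fit with no filter on low counts, beside 4.59%. At an adjusted p under 0.01 edgeR called 0, beside 0.793%. The edgeR call of *Fmod* was lost without any 1 of 7 libraries, control replicate 1 of Day 3, both *Sox17*-*Erg* libraries of Day 3 and all 4 libraries of 4 weeks. Between Day 3 and Day 7 no change was called (2 unadjusted, 1 by DESeq2), beside 0.0838% of all genes, though the block inside each time point called *Ogn* (-2.36, adjusted p = 0.041), beside 0.845%, and the replicate block did not (adjusted p = 0.21). By edgeR none was called between Day 7 and 4 weeks (0 unadjusted, 0 by DESeq2), beside 0.0387%.

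The balance among the genes was read within each library. Control libraries held between 0.673 and 1.02 *Prelp* counts per *Dcn* count. In *Sox17*-*Erg* libraries the ratio was 0.297 and 0.377 first, 1.57 and 1.74 on Day 7, and 7.38 and 4.02 after 4 weeks. It lay below every control at Day 3 and above every control from Day 7 on. Counts of *Dcn* per count of *Lum*, its neighbour, were 12.02 and 6.07 in *Sox17*-*Erg* libraries at Day 3 and between 3.33 and 4.98 in the other 10 libraries.

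Scaled by exon length (CPM per kb, the length being the union of annotated exons), *Bgn* stood first in all 6 groups. In control at 4 weeks it was at 1780 ± 301 CPM per kb (SD, n = 2), followed by *Prelp* at 553 ± 81.1, *Dcn* at 446 ± 61.1, *Ogn* at 351 ± 50.6, *Lum* at 312 ± 54.5, *Aspn* at 26.2 ± 7.66, *Fmod* at 18.9 ± 1.73, *Podn* at 2.86 ± 0.417 and *Omd* at 2.06 ± 0.946. The libraries of *Ogn* and *Lum* overlapped, as did those of *Podn* and *Omd*, and the other neighbours in this order were apart. Without the length scaling *Dcn* was above *Prelp* in this group, at a mean of 2603 against 2000 CPM. The order of these genes therefore depends on the exon lengths used. In *Sox17*-*Erg* at Day 3 *Aspn* came second at 25.3 ± 16.3 CPM per kb, but its libraries overlapped with those of *Dcn* at 19.1 ± 11.1, and each next neighbour down to *Lum* overlapped too. At 4 weeks *Sox17*-*Erg* libraries had *Bgn* at 1235 ± 145 and *Prelp* at 396 ± 86.6 CPM per kb, well above *Dcn* at 45.0 ± 9.31. *Prelp* then made 79.9% and 70.7% of the summed CPM per kb of the members other than *Bgn*, against 29.8% to 36.3% in controls of any time and 12.5% and 14.9% in *Sox17*-*Erg* libraries of Day 3. All 10 genes together took 0.633% to 1.86% of counts in control and 0.359% to 0.999% in *Sox17*-*Erg* libraries.

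**Figure D3:**
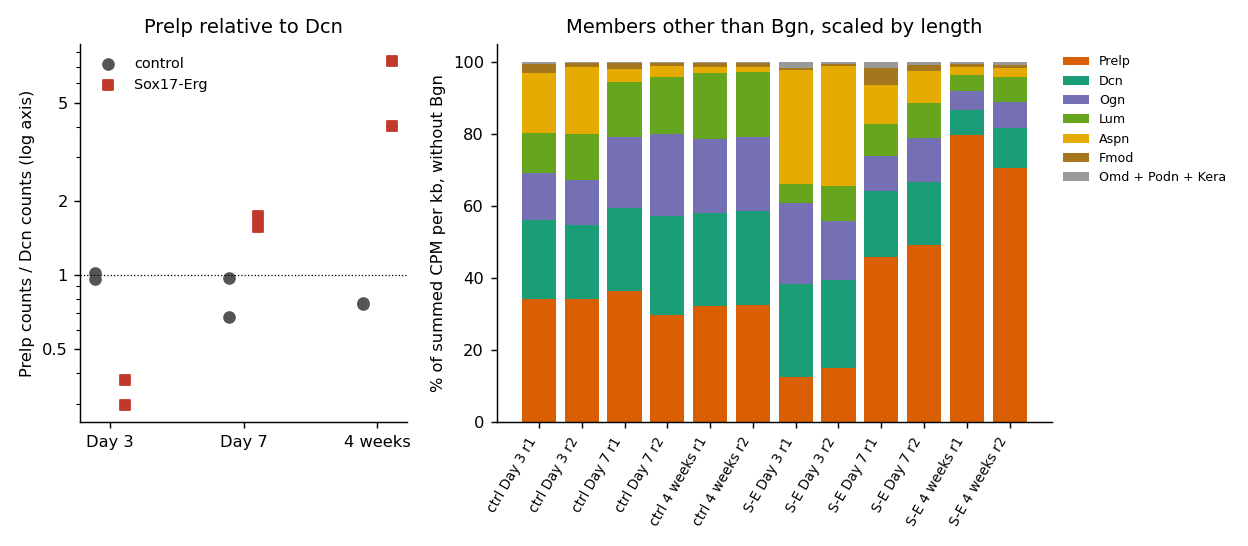
Left, *Prelp* counts divided by *Dcn* counts in each library (log axis, circles for control, squares for *Sox17*-*Erg*, dotted line at 1). Right, share of each gene in the summed CPM per kb of the members without *Bgn*, 1 bar per library, where the *Prelp* share grows from 12.5% and 14.9% to 79.9% and 70.7% in *Sox17*-*Erg* (S-E) libraries.

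Across the 12 libraries, which share groups and time, log2 CPM of *Dcn* ran with that of *Ogn* (Pearson r = 0.995) and *Lum* (0.985), as a description. *Aspn* ran with none of the others closely, its r being between -0.208 and 0.464. Against the mean pattern of the 9 genes, the most alike of the other tested genes were *Colec12* (r = 0.993), *Tmem176b* (0.993), *Ggt5* (0.992), *Sntb2* (0.991) and *Tbc1d2b* (0.991), and the most opposite were *Rbm12* (-0.986), *Mphosph6* (-0.979) and *Hmgn1* (-0.979).

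Values of chromosome neighbours are given side by side, without a test between them. At 4 weeks *Dcn* and *Lum* were at -3.31 and -3.39. *Btg1*, a growth inhibitor gene, is the nearest coding gene before them but ends at chr10:96622809, far from the run's start at chr10:97479609. It was called higher at each time point (log2 2.44, 2.96 and 2.87, adjusted p = 0.0006, 0.0001 and 0.0001). *Ccer1*, after that run, was not tested. In the chromosome 1 run *Fmod* was at -1.79 and *Prelp* at -0.48, and *Atp2b4*, the calcium pump gene before the run, was called higher at 4 weeks (1.75, adjusted p = 0.002). *Btg2*, on the other side, was at 0.31, 0.76 and 0.73 (adjusted p = 0.75, 0.38 and 0.38). In the chromosome 13 run *Ecm2* was at -0.97, *Aspn* at -1.20, *Omd* at -0.59 and *Ogn* at -3.43, and *Nol8* after it was at 0.39 (adjusted p = 0.14) at 4 weeks, though called higher at Day 3 (0.75, adjusted p = 0.029).

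**Figure D4:**
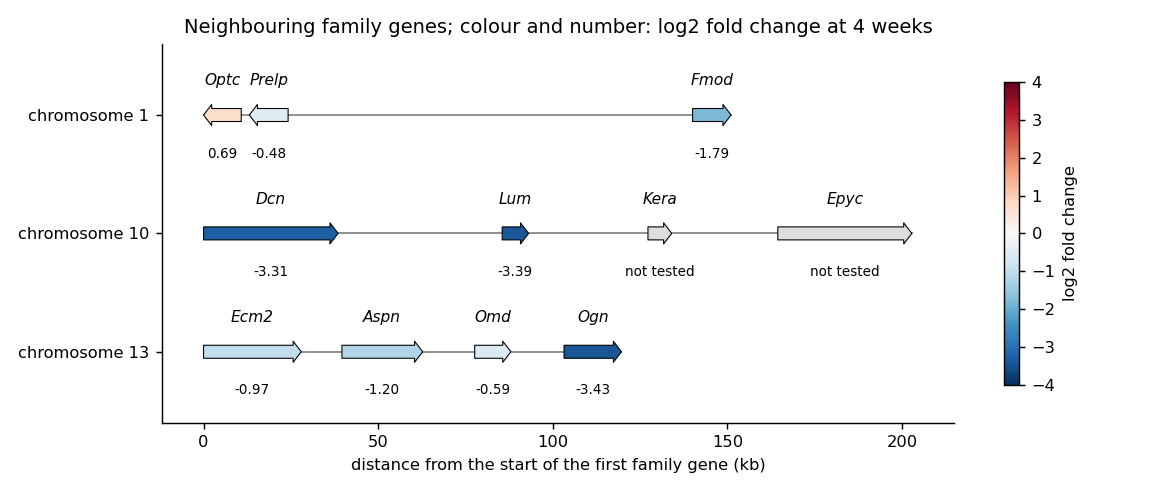
The 3 runs of family genes drawn to scale by distance in kb from the start of the first family gene, arrows giving the direction of transcription and colour and numbers the log2 fold change at 4 weeks. *Dcn* and *Lum* on chromosome 10 are at -3.31 and -3.39, *Ogn* on chromosome 13 is at -3.43 beside *Aspn*, *Ecm2* and *Omd* between -1.20 and -0.59, and on chromosome 1 *Fmod* is at -1.79, *Prelp* at -0.48 and *Optc* at 0.69, while *Kera* and *Epyc* were not tested.

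Lists of genes that make, bind or resemble these proteins were then read at the same thresholds. Of all tested genes 5.13%, 7.93% and 11.0% were called lower and 7.19%, 9.48% and 11.9% higher in time order. Of 8 further family members 6 were tested, *Ecm2* was called lower at all 3 time points (log2 -1.07, -1.03 and -0.97, adjusted p = 0.025, 0.019 and 0.018) and *Tsku*, a secreted signalling modulator, at 4 weeks (-0.73, adjusted p = 0.0065). None was called higher by edgeR, 2 had an unadjusted p under 0.05 in either direction at each time point, and DESeq2 called 1, 1 and 2. The list's median at 4 weeks, 0.50, has the opposite sign to its 2 calls. Summed levels of these 8 genes were low, 32.5 to 73.4 CPM in any library. The fibril-forming collagens are the partners on which the proteoglycans sit. Of 11 tested, edgeR called 1 lower at Day 3 (*Col24a1*), 1 lower at Day 7 (*Col27a1*) and none lower and 1 higher at 4 weeks (*Col2a1*, the cartilage collagen, log2 3.02, adjusted p = 0.011). In time order 1, 5 and 4 had an unadjusted p under 0.05 in either direction, and DESeq2 called 1, 5 and 4. *Col24a1* and *Col27a1* were named after their values were seen.

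Other proteoglycan core proteins differed between the arms in both directions. Of 19 tested genes 3 were called lower and 3 higher at Day 3, beside 5.13% and 7.19% of all tested genes. In the same order the counts were 4 and 8 by Day 7, beside 7.93% and 9.48%. By 4 weeks they were 4 and 10, beside 11.0% and 11.9%. Lower ones at 4 weeks included *Gpc3*, a glypican (log2 -2.51, adjusted p = 0.0014), and *Tgfbr3*, the TGF-beta co-receptor betaglycan (-2.45, adjusted p = 0.0054). Higher ones included *Gpc1*, another glypican, at 3.23 and 2.97 CPM in control and 69.3 and 59.4 CPM in *Sox17*-*Erg* libraries (log2 4.37, SE 0.23, adjusted p = 1.19e-05). *Acan*, the core protein of cartilage aggrecan, had 0 and 1 counts in control and 143 and 99 counts in *Sox17*-*Erg* libraries at 4 weeks (adjusted p = 0.0006).

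Enzymes that build the sugar chains were read as 2 lists. Among 22 tested genes for the linker and for chondroitin and dermatan sulfate, edgeR called none at Day 3, when 4 had an unadjusted p under 0.05 and DESeq2 called 0. One gene, *Chst15*, was called lower at Day 7, beside 7.93% of all tested genes. At 4 weeks 3 were called lower and 2 higher, close to the shares of all tested genes, 11.0% and 11.9%. *Chst15* (log2 -1.58, adjusted p = 0.0056) and *Dse*, a dermatan sulfate epimerase (-0.55, adjusted p = 0.020), were lower in *Sox17*-*Erg* than in control at 4 weeks, and the chondroitin sulfotransferase gene *Chst3* (4.92, adjusted p = 0.00067) and the xylosyltransferase gene *Xylt2* (0.52, adjusted p = 0.034) were higher. Of 9 tested keratan sulfate enzymes 2 were called lower and 2 higher at both Day 3 and Day 7, and 3 lower and 1 higher at 4 weeks. *Chst1*, a keratan sulfate sulfotransferase gene, was at 8.02 and 8.82 CPM in control and 0.779 and 0.667 CPM in *Sox17*-*Erg* libraries at 4 weeks (log2 -3.53, SE 0.51, adjusted p = 0.0014). *B4galt4* was at -1.10 (adjusted p = 0.017), *St3gal2* at 0.86 (adjusted p = 0.00045), and *Chst5* had 0 counts in all libraries.

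Of 4 tested proteinases and enhancers that process procollagen or family propeptides, edgeR called none at Day 3 or Day 7, when 1 had an unadjusted p under 0.05 and DESeq2 called 1 each time. At 4 weeks *Pcolce* was called lower (log2 -1.41, adjusted p = 0.013) and *Pcolce2* higher (1.81, adjusted p = 0.0086). Among 15 ligands and receptors that family members are known to bind, the counts lower and higher were 1 and 3, then 3 and 5, then 2 and 7. For all tested genes the shares were 5.13% and 7.19%, then 7.93% and 9.48%, then 11.0% and 11.9%. *Egfr*, a receptor for decorin, was called lower at 4 weeks (-2.78, adjusted p = 0.00028), and *Met*, another decorin receptor, higher (4.92, adjusted p = 0.00019). At that time *Tgfbr1* was also lower in *Sox17*-*Erg* than in control (-0.89, adjusted p = 0.00059) and *Cd44*, the hyaluronan receptor, higher (3.67, adjusted p = 5.25e-05). These lists were chosen with earlier results of the data known, and their counts are descriptions.

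**Figure D5:**
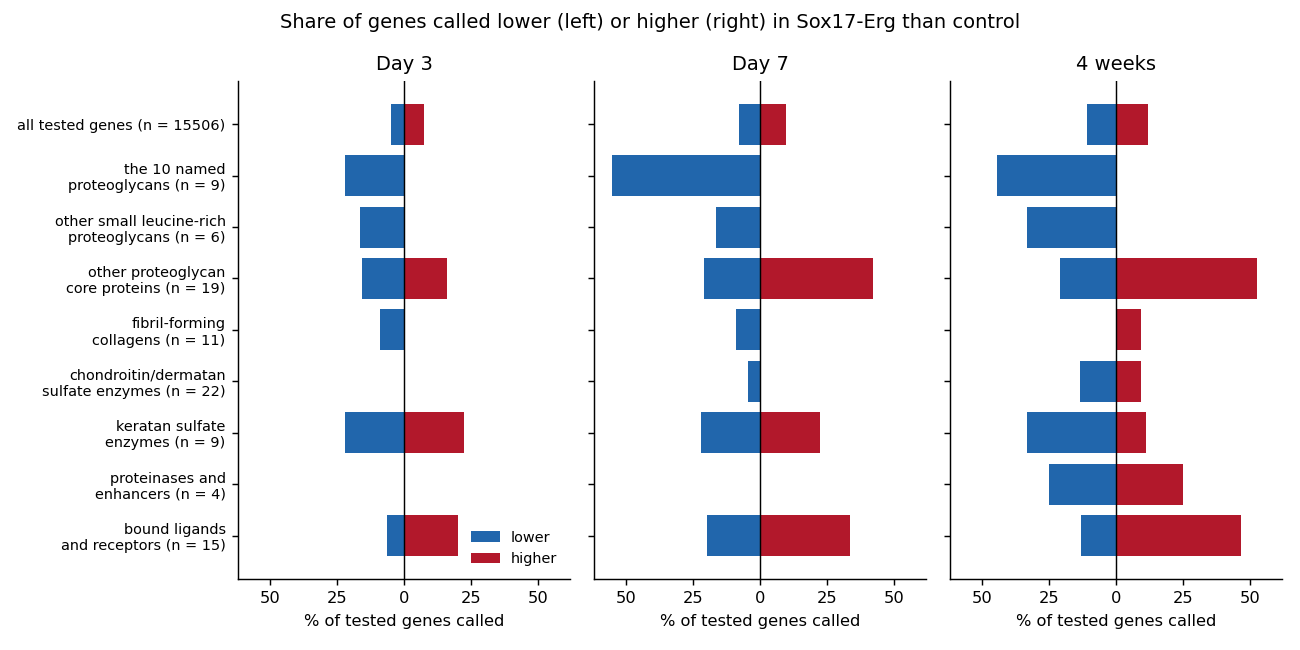
Percent of tested genes called lower (left, blue) or higher (right, red) in *Sox17*-*Erg* than in control at each time point, for all tested genes, for the 9 tested of the 10 members and for each list of related genes (n, genes tested). Of the 9 members 2, 5 and 4 are called lower and 0 higher, and of the 19 other core proteins 3, 4 and 4 are called lower and 3, 8 and 10 higher.

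Markers of several cell types differed between the arms together with the members, and their part in the result was not tested. Of all tested genes 5.13%, 7.93% and 11.0% were called lower and 7.19%, 9.48% and 11.9% higher in time order. Among 7 fibroblast markers *Tcf21* was called lower at Day 3, *Pdgfra* lower and *Postn* higher at Day 7, and *Tcf21* and *Pdgfra* lower and *Postn* higher at 4 weeks, when *Pdgfra* was at 1657 and 1609 CPM in control and 330 and 335 CPM in *Sox17*-*Erg* libraries. All 6 epicardial and mesothelial markers were called lower at 4 weeks, 4 at Day 7 and 1 at Day 3. Their summed level was 918 to 1449 CPM in control and 165 to 259 CPM in *Sox17*-*Erg* libraries at 4 weeks, and none of the defining markers was at 0 in any library. Of 7 tested endothelial markers 4, 5 and 6 were called higher at the 3 time points and none lower. Macrophage markers gave no call by edgeR, by DESeq2 or at an unadjusted p under 0.05 at any time point. They summed to 43.6 to 1493 CPM in control and 61.4 to 471 CPM in *Sox17*-*Erg* libraries. At Day 7 the sums stood apart, at 944.5 to 1493 CPM in control and 263 to 471 CPM in *Sox17*-*Erg*, with a median log2 fold change of -1.435.

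Other marker lists also differed between the arms, beside the shares of all tested genes given above. Of 7 smooth muscle and pericyte markers 1, 5 and 4 were called higher in time order, with 1 lower after 4 weeks. Of 7 cardiomyocyte markers 1, 1 and 4 were called lower, at summed levels of 647 to 1530 CPM in control and 333 to 688 CPM in *Sox17*-*Erg* libraries. Of 5 tested cartilage and bone markers 1 was lower first, 2 were higher on Day 7, and 2 were lower and 3 higher after 4 weeks, with *Ibsp* at 0 counts throughout. Proliferation genes gave no edgeR call at Day 3 (4 unadjusted, 1 by DESeq2) or Day 7 (0 unadjusted, 0 by DESeq2), and 5 of 7 were called higher at 4 weeks. They summed to 356.7 to 459 CPM in control and 987 to 1186 CPM in *Sox17*-*Erg* libraries at Day 3, and to 42.1 to 45.1 CPM against 86.6 to 231 CPM at 4 weeks.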

How the data were processed

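Bulk RNAseq libraries (TRIzol, Kapa mRNA Stranded, 2 × 50 reads) were demultiplexed with bcl2fastq 2.20.0, trimmed for high GC content with BBDuk and quantified with Salmon by the authors, who named mm10 as the build. The deposited values are estimated counts per Ensembl gene, rounded to whole numbers and not scaled for library size. The Salmon version and annotation are not given in the sources used here.

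Samples were grouped from their labels, 2 libraries in each of 6 groups. Symbols, positions and exon lengths came from GENCODE M21, which named 35493 of 35727 genes, and promoters from RefSeq. The fit used edgeR 4.0.16 under R 4.3.3 (TMM scaling, filterByExpr at min.count 10 and min.total.count 15, 1 mean per group, 6 residual degrees of freedom, quasi-likelihood test, Benjamini-Hochberg over 15506 genes). Standard errors are those of the model. Log2 CPM for correlations used a prior count of 2.

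Members and lists were chosen with earlier results of these data known. All members were named, with the 2 lowest and 2 highest called genes of each list at 4 weeks, the 5 genes most like and 3 most unlike the members in pattern, and the genes beside each run. Other marker genes were named after their values were seen. The replicate number comes from the labels. Deviations of same-numbered libraries from their group means correlated across genes by 0.19 at Day 3, 0.30 at Day 7 and 0.17 at 4 weeks, so the numbers were taken to pair the arms within a time point. Alternatives were DESeq2 1.42.0 and its size factors, other filters, single time points, a minimum fold change, an adjusted p under 0.01, the replicate block and leaving out each library. A block inside each time point was added for the comparisons between arms and their change with time. Time differences within an arm cannot be separated from its terms and were not taken from it. The authors' DESeq2 results were not used.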

Additional observations from a re-analysis of the deposited data

Results flagged for a closer look

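The effect of *Sox17*-*Erg* on *Fmod* differed between time points by a test of the difference itself. The log2 fold change against control was -3.73 at Day 3 and -1.79 at 4 weeks, a difference of 1.95 (SE 0.38, adjusted p = 0.027 by edgeR). Both *Sox17*-*Erg* libraries were lower than both controls at each time point. The call was lost without any 1 of 7 of the 12 libraries and at an adjusted p under 0.01, and it was kept with the replicate block (1.91, adjusted p = 0.020).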

How the results depend on the processing

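Counts of members called depended on the processing, and those in the report are given in parentheses. Members lower at Day 3 (2) were 4 with DESeq2 and with the replicate block, 6 with no filter on low counts and when the replicate block was set inside each time point, an alternative picked after seeing the data, and 1 at an adjusted p under 0.01. At Day 7 (5) each time point fitted alone and an adjusted p under 0.01 each gave 3. With no filter on low counts, 1 member was called lower at 4 weeks than at Day 3 in control and 1 in *Sox17*-*Erg* (0 and 0), both times *Aspn*, 8 were called higher with time in *Sox17*-*Erg* (5), and 4 had an effect that differed between 4 weeks and Day 3 (1), as with that block. An adjusted p under 0.01 gave 4 higher with time in control (7), 3 in *Sox17*-*Erg*, and 0 differing effects. Leaving out each library gave 1 to 5 members lower on Day 3, then 3 to 6, then 3 to 4, and 3 to 8 higher with time in control and 3 to 6 in *Sox17*-*Erg*, and 0 to 1 differing effects. The lowest count at Day 3, 1, arose without either Day 3 control and without *Sox17*-*Erg* replicate 1 of Day 3, and the highest, 5, without *Sox17*-*Erg* replicate 2 of Day 7. The counts at 0 for members higher than control stayed at 0 without any 1 library. Where an arm was left with 1 library, it was assumed to vary like the other groups. The cause of these changes was not tested.

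Of the single log2 fold changes under other settings, 219 kept direction and side of the threshold, 5 lost the call and 19 gained it. Over the leave-outs 300 kept both, 16 lost the call, 7 gained it and 1 changed sign, *Podn* at Day 7, which was 0.25 without control replicate 2 of Day 7, and -0.30 without replicate 1. With 2 libraries per group an SD is imprecise, and *Omd* and *Fmod* at Day 3 rest on 14 to 33 and 17 to 494 counts per library.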
